A study of Homo sapiens with 3 samples.

Results

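The genes described here are 10 core genes of the Hedgehog signalling pathway, measured in human neural cultures by Affymetrix expression arrays. They were chosen by name as the ligand SHH, the receptor PTCH1, the transducer SMO, the transcription factors GLI1, GLI2 and GLI3, the ligand trap HHIP and the co-receptors GAS1, CDON and BOC. Every probe set whose only annotated gene symbol was one of these names was taken, which gave 28 of the 54613 probe sets that are not array controls, and 10 of 19775 genes. All 3 arrays came from the established human embryonic stem cell line H9, and each group is 1 array. RA astrocytes were taken at day 210 after retinoic acid, FGF8 astrocytes at day 210 after fibroblast growth factor 8, each morphogen given from day 10 to day 21, and neuroepithelial cells at day 17 without a morphogen. Retinoic acid is a caudalising signal of the neural tube, and FGF8 is a signal of brain organisers. No Hedgehog ligand or agonist is named in the labels of any group. The cultures are of 1 line, differentiated through embryoid bodies without sorting named in the labels.

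In the Hedgehog pathway a secreted ligand binds PTCH1, which otherwise holds SMO inactive, and active SMO shifts the GLI factors in the primary cilium from repressors to activators. GAS1, CDON and BOC help PTCH1 to bind the ligand. PTCH1, GLI1 and HHIP are themselves target genes of the pathway, so their transcripts are widely used as its readout, and PTCH1 and HHIP limit the signal in return. In the neural tube Sonic hedgehog from the floor plate patterns ventral cell types, and GLI3 acts largely as the repressor in its dorsal part.

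The start-site sequences of PTCH1 and HHIP are shown because both genes are pathway targets and only PTCH1 carried the letters of the GLI binding motif among the member windows searched. The windows run 250 bases before to 50 bases after an annotated start and come from RefSeq on GRCh38.p14, 5′ to 3′ on the strand of the gene. Capitals mark the motif. The PTCH1 window is chr9:95509217-95509516 on the minus strand, 1 of 5 windows of this gene, and the HHIP window is chr4:144645906-144646205 on the plus strand.
PTCH1: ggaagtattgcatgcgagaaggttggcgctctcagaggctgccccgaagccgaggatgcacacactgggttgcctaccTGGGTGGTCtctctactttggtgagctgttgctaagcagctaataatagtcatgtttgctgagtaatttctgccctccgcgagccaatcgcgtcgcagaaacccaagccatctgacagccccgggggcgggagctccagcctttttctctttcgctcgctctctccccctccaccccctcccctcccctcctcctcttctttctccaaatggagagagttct
HHIP: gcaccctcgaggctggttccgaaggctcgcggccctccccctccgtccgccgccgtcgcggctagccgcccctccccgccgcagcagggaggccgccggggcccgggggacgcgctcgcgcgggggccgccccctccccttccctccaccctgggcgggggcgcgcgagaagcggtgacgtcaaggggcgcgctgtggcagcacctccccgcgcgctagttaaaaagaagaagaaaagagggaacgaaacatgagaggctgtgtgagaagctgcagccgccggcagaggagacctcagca

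The motif searched was GACCACCCA, read on both strands, with no other motif searched. It lay on the opposite strand to PTCH1, so that the strand of the gene, shown above, reads TGGGTGGTC there. The match began 172 bases before the start. Windows were found for 8 of the 10 members, 16 windows in all, and 1 window held the motif. GLI1 and GLI3 had no entry. Of 35116 windows of the same length in the table, 83 held the motif, or 0.236%. A match is a description of letters and not evidence of binding, and its absence from the other windows says nothing of GLI binding there.

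Signals were quantile normalized across the arrays, and a signal of 26.4, the median of all probe sets over the 3 arrays, served as a floor below which values have no order. Of the 28 member probe sets, 10 lay above the floor on every array, 9 on some arrays, and 9 on none. Differences are on the log2 scale, and where 1 of the 2 arrays lies at the floor the size is only bounded from below and is given as at least so much. Probe sets differ in how they bind, so levels were compared between arrays for 1 probe set and never between probe sets. With 1 array per group no test was possible, the number of arrays limits the precision, and a difference was called higher or lower when it reached 2-fold.

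Markers of the labelled cell types were checked first. GFAP, the astrocyte filament, had signals of 14496 in RA astrocytes and 3058 in FGF8 astrocytes, and lay at the floor in neuroepithelial cells. Of 10 astrocyte markers, 8 were higher in RA astrocytes and 7 in FGF8 astrocytes than in neuroepithelial cells, and none was lower. Of 10 neuroepithelial markers, 7 were lower and 1, NES, higher in RA astrocytes, and 6 were lower and 0 higher in FGF8 astrocytes. LIN28A and LIN28B were at the floor in both astrocyte cultures, while SOX2 lay within 2-fold on all arrays. Of 8 neuron markers, 4 were lower and 1, SYT1, higher in RA astrocytes, and 2 were lower and 2 higher in FGF8 astrocytes. Their summed signals were 14306 in RA astrocytes, 19420 in FGF8 astrocytes and 16439 in neuroepithelial cells. DCX, a protein of immature neurons, had signals of 582 in RA astrocytes, 6763 in FGF8 astrocytes and 2058 in neuroepithelial cells. STMN2 had 153 in RA astrocytes, lay at the floor in FGF8 astrocytes and had 2237 in neuroepithelial cells. Of 8 endoderm markers 3 were compared, AFP, KRT18 and TTR, and all 3 were lower in both astrocyte cultures, with summed signals of the list of 87.6 in RA astrocytes, 94.2 in FGF8 astrocytes and 2649 in neuroepithelial cells. The 3′ to 5′ signal ratio of ACTB, a measure of RNA or labelling quality, was 6.67 in RA astrocytes, 6.63 in FGF8 astrocytes and 1.33 in neuroepithelial cells. The 18 hybridisation spike-in probe sets were brighter on the RA array than on the neuroepithelial array by 1.39 and than on the FGF8 array by 1.27 on the log2 scale, and brighter on the FGF8 array than on the neuroepithelial array by 0.12. The part of these marker and array differences in the results was not tested.

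**Figure D1:**
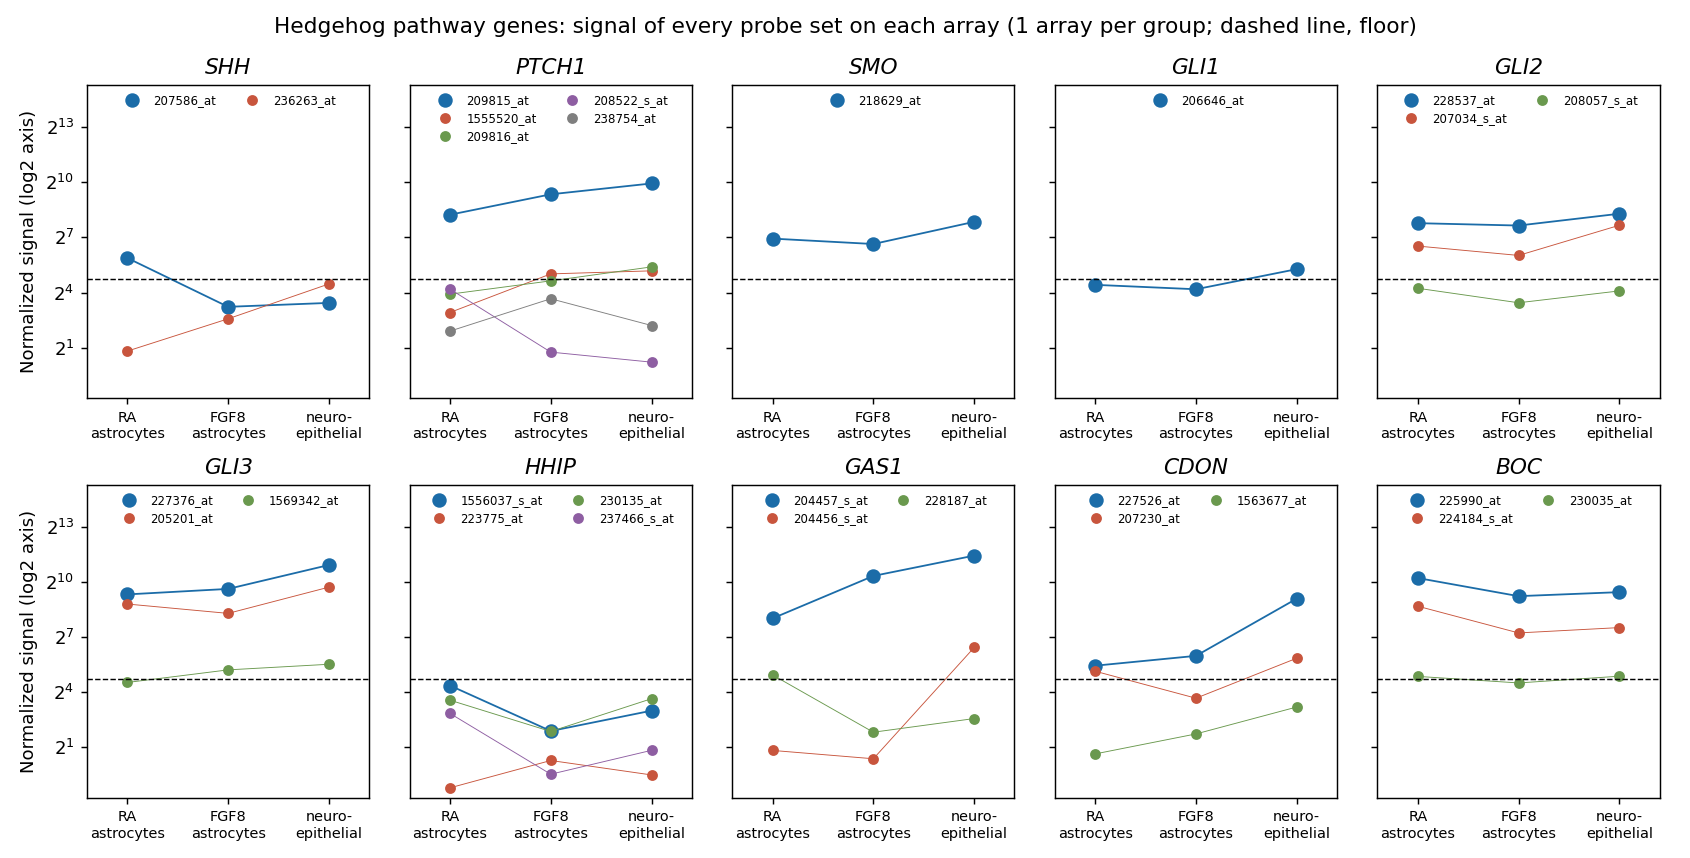
Normalized signal (vertical log2 axis) of all 28 probe sets of the 10 Hedgehog genes on the arrays of RA astrocytes, FGF8 astrocytes and neuroepithelial cells, each point 1 array, with larger points for the probe set of highest mean and a dashed line at the floor of 26.4. The neuroepithelial array was the highest for the bright probe sets of PTCH1, SMO, GLI2, GLI3, GAS1 and CDON, the RA array was the highest for SHH and BOC, and all 4 HHIP probe sets lay under the floor.

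SHH, the ligand gene of the pathway in the neural tube, was measured by 2 probe sets, and the signal was weak. On 207586_at the signal was 58.8 in RA astrocytes, while FGF8 astrocytes and neuroepithelial cells lay under the floor. RA astrocytes were therefore at least 2.23-fold higher than either other culture, a log2 difference of at least 1.16. The second probe set, 236263_at, lay under the floor on all 3 arrays, so the higher SHH value rests on 1 probe set of 1 array. Of all probe sets compared, 12.5% lay at least as far above the neuroepithelial array as 207586_at did. With the floor at the 70th percentile of all probe sets SHH was not measured at all. The other 2 Hedgehog ligand genes gave little signal: IHH lay under the floor on every array, and DHH reached 28.0 in FGF8 astrocytes and lay under the floor in RA astrocytes and neuroepithelial cells.

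PTCH1, the ligand receptor and a target of the pathway, was lower in RA astrocytes. The bright probe set 209815_at had signals of 300.2 in RA astrocytes, 648 in FGF8 astrocytes and 976 in neuroepithelial cells. RA astrocytes were 3.25-fold lower than neuroepithelial cells and 2.16-fold lower than FGF8 astrocytes, with log2 differences of -1.70 and -1.11. FGF8 astrocytes lay at -0.59 from neuroepithelial cells, within 2-fold, and at -0.03 with array medians set equal. The weaker 1555520_at was at the floor in RA astrocytes and had 32.3 in FGF8 astrocytes and 36.2 in neuroepithelial cells. The third measured probe set, 209816_at, was above the floor on the neuroepithelial array alone, at 42.0. None of the 3 gave a difference above 0 in either astrocyte culture, and the other 2 PTCH1 probe sets lay under the floor throughout.

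SMO, the membrane protein that carries the signal into the cell, has 1 probe set. Its signal was 122 in RA astrocytes, 99.6 in FGF8 astrocytes and 230 in neuroepithelial cells. FGF8 astrocytes were 2.31-fold lower than neuroepithelial cells, and RA astrocytes lay at a log2 difference of -0.91, just within 2-fold. The 2 astrocyte arrays differed by 0.29. Which of the 2 passed 2-fold turned on the scaling: the deposited values put RA astrocytes at -1.02, and equal medians put FGF8 astrocytes at -0.82.

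The co-receptors did not move together. CDON, an immunoglobulin-family co-receptor, had the largest difference of any member. On 227526_at its signal was 43.6 in RA astrocytes, 63.1 in FGF8 astrocytes and 546 in neuroepithelial cells. RA astrocytes were 12.5-fold lower and FGF8 astrocytes 8.64-fold lower than neuroepithelial cells, log2 differences of -3.65 and -3.11. Only 0.925% of all probe sets compared lay as far below the neuroepithelial array in RA astrocytes, and 0.94% in FGF8 astrocytes. The dimmer 207230_at had signals of 35.4 in RA astrocytes, under the floor in FGF8 astrocytes and 57.8 in neuroepithelial cells. It gave the same direction at a smaller size, -0.71 for RA astrocytes and at least 1.13 lower for FGF8 astrocytes. The gap of 2.94 between the CDON probe sets in the RA comparison compares with a median gap of 0.84 over 6808 genes with several measured probe sets. The third CDON probe set, 1563677_at, lay under the floor on all 3 arrays.

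BOC, the closest relative of CDON among the members, was lower in neither astrocyte culture by 2-fold. On 225990_at its signal was 1186 in RA astrocytes, 599 in FGF8 astrocytes and 697 in neuroepithelial cells. On 224184_s_at it was 410.2 in RA astrocytes, 150 in FGF8 astrocytes and 183 in neuroepithelial cells. RA astrocytes were thus the highest on both, at 0.77 and 1.16 above neuroepithelial cells and 0.99 and 1.45 above FGF8 astrocytes. FGF8 astrocytes lay at -0.22 and -0.29 from neuroepithelial cells, and these signs turned to 0.32 and 0.10 with array medians set equal. The third probe set, 230035_at, had 29.1 in RA astrocytes, under the floor in FGF8 astrocytes and 29.3 in neuroepithelial cells. These signals stand next to the floor. On this probe set RA astrocytes lay at -0.01 from neuroepithelial cells, and FGF8 astrocytes were at least 0.15 lower. The first 2 probe sets put the RA difference on either side of 2-fold, so the BOC call depends on the probe set.

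GAS1, a membrane-anchored co-receptor from an intronless gene, had probe sets that disagreed. On the bright 204457_s_at its signal was 259 in RA astrocytes, 1283 in FGF8 astrocytes and 2761 in neuroepithelial cells. RA astrocytes were 10.7-fold lower than neuroepithelial cells and 4.95-fold lower than FGF8 astrocytes, and FGF8 astrocytes 2.15-fold lower than neuroepithelial cells. The RA array was the lowest and the neuroepithelial array the highest on this probe set. The second, 204456_s_at, was above the floor on the neuroepithelial array alone, at 86.5, and gave both astrocyte cultures as at least 3.28-fold lower. The third, 228187_at, was above the floor on the RA array alone, at 30.8, and gave RA astrocytes as at least 0.22 higher on the log2 scale than either other culture. That signal stood next to the floor. The span from -3.41 to 0.22 in the RA comparison was the widest of any member. The call of FGF8 astrocytes as lower by 2-fold on 204457_s_at was lost with the deposited values, at -0.98, and with equal medians, at -0.52.

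HHIP, a surface protein that traps the ligand, lay under the floor on all 3 arrays with each of its 4 probe sets. The highest of the 12 values was 20.6, on 1556037_s_at in RA astrocytes. HHIP was thus not detectable above the floor in any culture, and no difference was computed.

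Of the GLI factors, GLI1 stood near the floor while GLI2 and GLI3 had probe sets well above it on every array. GLI1, an activator whose transcript follows pathway activity, has 1 probe set, with a signal of 38.6 in neuroepithelial cells and both astrocyte cultures under the floor. Both were at least 1.46-fold lower, a lower bound, so whether either passed 2-fold is not known. GLI2, the main activator, had signals on 207034_s_at of 92.2 in RA astrocytes, 64.8 in FGF8 astrocytes and 202 in neuroepithelial cells. On 228537_at they were 218 in RA astrocytes, 199.8 in FGF8 astrocytes and 312 in neuroepithelial cells. The first gave log2 differences of -1.13 for RA astrocytes and -1.64 for FGF8 astrocytes against neuroepithelial cells, and the second -0.51 and -0.64. The GLI2 probe sets therefore share a direction, and only 207034_s_at passes 2-fold. With array medians set equal, its RA difference lay at -0.86, within 2-fold. The third GLI2 probe set, 208057_s_at, lay under the floor on all 3 arrays.

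GLI3, the main repressor of the family, was lower in both astrocyte cultures. On 227376_at its signal was 639.9 in RA astrocytes, 787 in FGF8 astrocytes and 1938 in neuroepithelial cells. RA astrocytes were 3.03-fold lower and FGF8 astrocytes 2.46-fold lower than neuroepithelial cells. On 205201_at the signals were 445 in RA astrocytes, 313 in FGF8 astrocytes and 842 in neuroepithelial cells, with log2 differences of -0.92 for RA astrocytes and -1.43 for FGF8 astrocytes. The third probe set, 1569342_at, had at most 46.0 on any array and gave at least 0.80 lower for RA astrocytes and -0.30 for FGF8 astrocytes. The astrocyte arrays changed order between the bright GLI3 probe sets, with RA minus FGF8 at -0.30 and 0.51. With array medians set equal, FGF8 astrocytes lay within 2-fold of neuroepithelial cells on both, at -0.73 and -0.88.

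**Figure D2:**
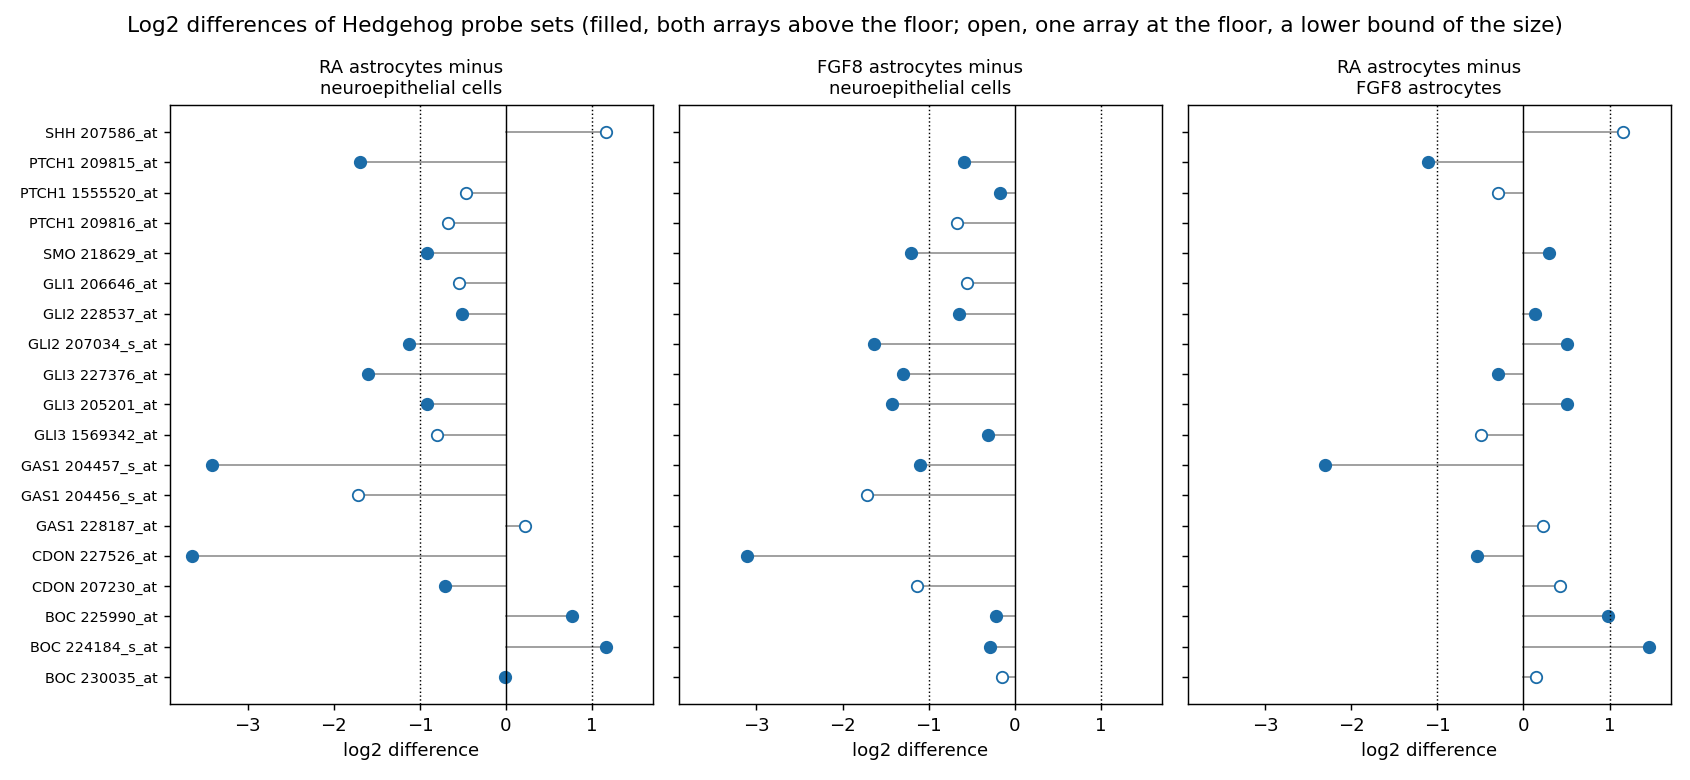
Log2 differences (horizontal axis) of the 19 Hedgehog probe sets above the floor on at least 1 array, in the 3 comparisons, with filled points where both arrays were above the floor, open points for lower bounds and dotted lines at 2-fold. CDON 227526_at lies at -3.65 and -3.11 in the astrocyte comparisons with neuroepithelial cells, and no FGF8 difference from neuroepithelial cells is above 0.

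Setting RA astrocytes against neuroepithelial cells asks how the pathway genes stand in the astrocyte culture specified with retinoic acid relative to the early progenitor. Genes were each taken on the probe set of highest mean. PTCH1, GLI3, GAS1 and CDON were lower, SHH was higher, and SMO, GLI2 and BOC lay within 2-fold. GLI1 was at least 1.46-fold lower, so whether it passed 2-fold is not known. The count is thus 4 lower and 1 higher of 9 compared, where 14.6% of all 13339 genes compared were lower and 18.1% higher. The median log2 difference was -0.91 over the 9 members and 0.07 over all genes compared. Over probe sets, 6 of 19 were lower and 2 higher, where 15.4% of all probe sets were lower and 15.2% higher. With array medians set equal the median of all genes compared became 0.35, PTCH1, GLI3, GAS1 and CDON still passed 2-fold, at -1.24, -1.11, -2.94 and -3.38, and BOC joined SHH among the higher genes, at 1.27. The mitosis and S phase genes moved in the same direction as the lower members: all 15 were lower in RA astrocytes, with summed signals of 3569 in RA astrocytes and 32252 in neuroepithelial cells, and none was at the floor. Mesenchymal markers were lower in 6 of 8, with summed signals of 4194 in RA astrocytes and 11211 in neuroepithelial cells. COL1A1, COL3A1, LUM, DCN, PDGFRB and TWIST1 were at the floor in RA astrocytes. Most of the RA sum was ACTA2, which had 4090 in RA astrocytes and 2160 in neuroepithelial cells, 1.89-fold higher in RA astrocytes. Oligodendrocyte lineage markers were higher in 2 of 6 compared, PDGFRA and CNP, with summed signals of 2736 in RA astrocytes and 687 in neuroepithelial cells. The part of these lists in the differences was not tested, and in these bulk cultures fewer cells of a type and less RNA per cell cannot be told apart.

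The matching question for the culture specified with FGF8 sets FGF8 astrocytes against neuroepithelial cells. SMO, GLI3, GAS1 and CDON were lower, PTCH1, GLI2 and BOC lay within 2-fold, and SHH and HHIP were not measured on either array. GLI1 was at least 1.46-fold lower, so whether it passed 2-fold is not known. The count is thus 4 lower and 0 higher of 8 genes compared, where 10.2% of all 13004 genes compared were lower and 12.8% higher. All 8 members lay below 0, with a median of -0.87 against 0.05 over all genes compared. Over probe sets, 8 of 17 were lower and 0 higher, where 10.9% were lower and 11.0% higher. The count depended on scaling: with array medians set equal, which moved the median of all genes to 0.42, 1 gene, CDON, was lower by 2-fold, and 4 probe sets were. Mitosis and S phase genes were lower in 7 of 15, with summed signals of 19379 in FGF8 astrocytes and 32252 in neuroepithelial cells. Mesenchymal markers were lower in 7 of 8, with summed signals of 703 in FGF8 astrocytes and 11211 in neuroepithelial cells, and COL1A1, COL3A1, LUM and DCN were at the floor in FGF8 astrocytes. Of 7 oligodendrocyte lineage markers 5 were compared and 3 were higher in FGF8 astrocytes, PDGFRA by 35.0-fold, with summed signals of 7684 in FGF8 astrocytes and 687 in neuroepithelial cells. The part of these lists in the differences was not tested. The neuroepithelial array is shared with the RA comparison, so the 2 comparisons are not independent.

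RA and FGF8 astrocytes were compared to ask whether the early morphogen goes with different pathway genes at day 210. SHH was higher in RA astrocytes, PTCH1 and GAS1 were lower, and SMO, GLI2, GLI3, CDON and BOC lay within 2-fold on their main probe sets. This is 1 higher and 2 lower of 8 genes compared, where 9.68% of all 12959 genes compared were higher and 7.86% lower. The median over members was -0.09, and over all genes compared 0.01. Over probe sets 2 of 16 were higher, SHH 207586_at and BOC 224184_s_at, and 2 were lower, PTCH1 209815_at and GAS1 204457_s_at, where 8.45% of all probe sets were higher and 7.87% lower. With the probe sets of each gene averaged, 0 members were higher and 0 lower. Without _x_at and _s_at probe sets 1 member was higher and 1 lower, since the GAS1 call rests on an _s_at probe set. On their main probe sets the ligand gene SHH and the receptor gene PTCH1 lay in opposite directions. All 15 mitosis and S phase genes were lower in RA than in FGF8 astrocytes, with summed signals of 3569 in RA astrocytes and 19379 in FGF8 astrocytes. Of 7 oligodendrocyte lineage markers 5 were compared, and 1, PDGFRA, was lower in RA astrocytes, with summed signals of 2736 in RA astrocytes and 7684 in FGF8 astrocytes. The part of either list in the differences was not tested.

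The other pathway genes came from lists of fixed membership, of which 1 probe set of highest mean was used per gene. Of 10 genes of ligand release and capture compared, 7 were lower and 1 higher in RA astrocytes than in neuroepithelial cells, where 14.6% of all genes compared were lower and 18.1% higher, with a median of -1.82. In FGF8 astrocytes 5 of 11 were lower and 1 higher, where 10.2% of all genes were lower and 12.8% higher, with a median of -0.57, which ran from -2.59 to -0.32 over the alternatives. LRP2, an endocytic receptor that binds Sonic hedgehog in the mouse forebrain neuroepithelium, had a signal of 797 in neuroepithelial cells and was at or next to the floor in both astrocyte cultures. GPC3, a glypican that competes with the receptor for the ligand in the mouse, had signals of 86.5 in RA astrocytes, at the floor in FGF8 astrocytes and 1399 in neuroepithelial cells. The secreted SCUBE proteins, which help to release the lipid-modified ligand, went both ways. SCUBE3 had signals of 102 in RA astrocytes, 56.7 in FGF8 astrocytes and 793 in neuroepithelial cells, and SCUBE1 was above the floor in neuroepithelial cells alone, at 418. SCUBE2 had signals of 152 in RA astrocytes and 86.2 in FGF8 astrocytes and was at the floor in neuroepithelial cells. DISP1, the transporter that releases the ligand, had signals of 149 in RA astrocytes, 57.8 in FGF8 astrocytes and 85.3 in neuroepithelial cells, a log2 difference of 1.36 between the astrocyte cultures. GPC6, another glypican, was lower in RA astrocytes than in FGF8 astrocytes, at -1.19 on the log2 scale.

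Target genes of GLI outside the members were lower in 7 of 12 compared in RA astrocytes and 7 of 13 in FGF8 astrocytes, with 1 higher in each. Over all genes compared, 14.6% were lower and 18.1% higher in RA astrocytes, and 10.2% lower and 12.8% higher in FGF8 astrocytes. Their medians were -1.75 in RA astrocytes and -1.18 in FGF8 astrocytes, and -0.86 and -0.57 with the floor at the 30th percentile, which brought in fainter genes. CCND1, the G1 cyclin, had a signal of 1068 in neuroepithelial cells and lay at the floor in both astrocyte cultures. MYCN, a transcription factor of proliferating progenitors, had signals of 474 in RA astrocytes, 325 in FGF8 astrocytes and 1677 in neuroepithelial cells. SFRP1, a WNT antagonist, had signals of 431 in RA astrocytes, 1826 in FGF8 astrocytes and 4689 in neuroepithelial cells. GREM1, a BMP antagonist, was at the floor in RA astrocytes and had 93.8 in FGF8 astrocytes and 599.9 in neuroepithelial cells. Between the astrocyte cultures SFRP1 was lower in RA astrocytes, at -2.08, as were FOXM1, a factor of mitotic gene expression, at -1.66, and GREM1 by at least 1.83. This is 3 lower and 0 higher of 11 compared, where 7.86% of all genes compared were lower and 9.68% higher. The cyclin CCND2 was the gene higher in both cultures than in neuroepithelial cells, with signals of 7030.0 in RA astrocytes, 8091 in FGF8 astrocytes and 3297 in neuroepithelial cells. Genes on this list answer to many other pathways, and 9 of its 21 genes in the RA comparison and 8 in the FGF8 comparison lay at the floor on both arrays. Ventral identity genes were scarce: FOXA2, the floor plate factor, lay under the floor on every array, and NKX2-2 reached 26.8 in FGF8 astrocytes alone. NKX2-1 was above the floor in neuroepithelial cells alone, at 187, and OLIG2 had signals of 64.6 in RA astrocytes, 106 in FGF8 astrocytes and 60.3 in neuroepithelial cells. In the floor plate list SPON1, an adhesion protein of the floor plate, had signals of 69.6 in RA astrocytes, 1555 in FGF8 astrocytes and 1276 in neuroepithelial cells. NTN1, the axon guidance cue netrin, had signals of 531 in RA astrocytes, 215 in FGF8 astrocytes and 114 in neuroepithelial cells. Of the 14 genes of that list on the array, 5 were above the floor in each comparison, 3 of them lower in RA astrocytes and 2 in FGF8 astrocytes than in neuroepithelial cells. Of the dorsal neural tube list 2 of 8 genes compared were higher and 2 lower in RA astrocytes, and 0 were higher and 2 lower in FGF8 astrocytes, than in neuroepithelial cells. The dorsal counts, to be set beside the same shares over all genes, are of 8 genes, and nothing is read from these counts or from those of the 5 floor plate genes.

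Of 28 cytoplasmic regulators of GLI, which act between SMO and the nucleus, 5 were higher and 4 lower in RA astrocytes than in neuroepithelial cells, and 2 were higher and 5 lower in FGF8 astrocytes, with medians of 0.16 and 0.02. The RA counts are near the shares over all genes compared, which were 18.1% higher and 14.6% lower. In FGF8 astrocytes the shares over all genes were 12.8% higher and 10.2% lower. The regulators there had a smaller share higher and a larger share lower, and nothing is read from counts this small. SUFU, the main cytoplasmic inhibitor of GLI, had signals of 113 in RA astrocytes, 36.8 in FGF8 astrocytes and 74.2 in neuroepithelial cells, a log2 difference of 1.61 between the astrocyte cultures. KIF7, the ciliary kinesin of the pathway, had signals of 76.3 in RA astrocytes, 81.2 in FGF8 astrocytes and 65.0 in neuroepithelial cells. GRK3, a kinase of G protein-coupled receptors, had signals of 50.1 in RA astrocytes, 198 in FGF8 astrocytes and 433 in neuroepithelial cells. PRKAR2B, a regulatory subunit of protein kinase A, lay at -1.70 in RA astrocytes and -0.91 in FGF8 astrocytes. The 1 probe set used for GNAS, the stimulatory G protein, lay at -1.48 in RA astrocytes and -1.05 in FGF8 astrocytes. Its signals were 116 in RA astrocytes, 157 in FGF8 astrocytes and 324 in neuroepithelial cells. Any GNAS probe set of the _x_at type was left out, and whether other probe sets of the gene share this difference was not tested. ARRB1, a beta-arrestin, was above the floor in neuroepithelial cells alone and at least 1.76 lower in both cultures, and GRK2, the kinase that phosphorylates SMO, lay at -0.49 in RA astrocytes and -1.20 in FGF8 astrocytes. Among higher genes, casein kinase CSNK1E lay at 1.49 in RA astrocytes and 1.41 in FGF8 astrocytes, ULK3, a kinase that acts on GLI proteins, at 1.24 and 0.58, and PRKACA, a catalytic subunit of protein kinase A, at 1.17 and -0.08. STK36, a kinase relative of fly Fused, had signals of 298 in RA astrocytes, 239 in FGF8 astrocytes and 118 in neuroepithelial cells. Of the primary cilium genes, 38 of 43 compared in RA astrocytes and 38 of 42 in FGF8 astrocytes lay within 2-fold of neuroepithelial cells, with medians of 0.13 and 0.09. EVC, a ciliary protein that binds SMO, was an exception, with signals of 140 in RA astrocytes and 78.9 in FGF8 astrocytes and at the floor in neuroepithelial cells. The kinesin-2 genes KIFAP3 and KIF3B lay at 1.63 and 1.61 in RA astrocytes and at 1.01 and 0.95 in FGF8 astrocytes, and IQCE, which anchors EVC in the cilium, was 2.83-fold higher in RA astrocytes and within 2-fold in FGF8 astrocytes. WDR19, an intraflagellar transport protein, lay at 0.77 in RA astrocytes and 1.17 in FGF8 astrocytes. The planar polarity effectors were lower, INTU in RA astrocytes, at -1.37, and FUZ in FGF8 astrocytes, at -1.35. Between the astrocyte cultures 41 of 42 cilium genes lay within 2-fold, and INTU was the exception, at -1.22. Over all genes compared, 9.68% were higher and 7.86% lower in RA than in FGF8 astrocytes.

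**Figure D3:**
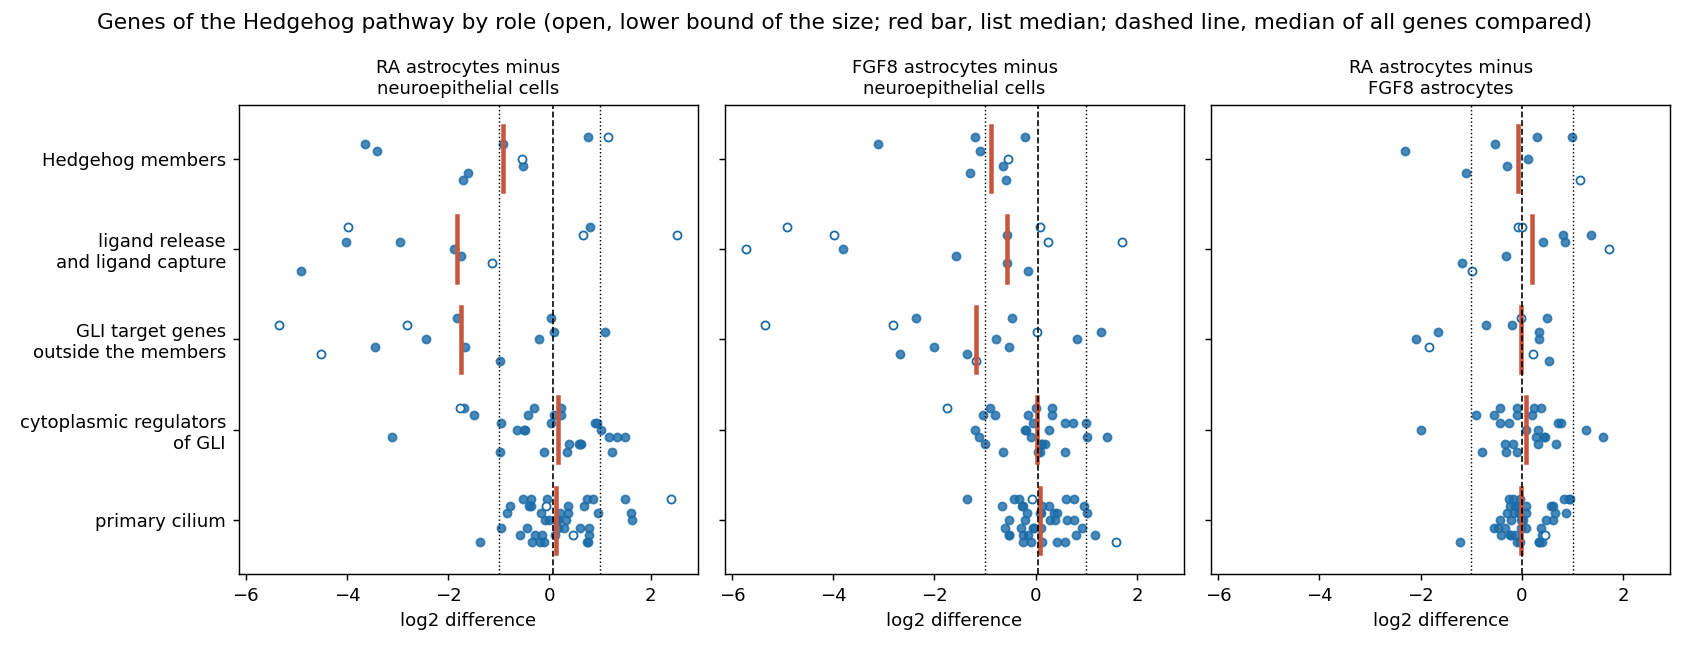
Log2 differences (horizontal axis) of the Hedgehog genes and 4 further lists of pathway genes in the 3 comparisons, each point 1 gene, open points lower bounds, red bars list medians, the dashed line the median of all genes compared and dotted lines 2-fold. Cilium and cytoplasmic regulator medians lie between -0.03 and 0.16, while the ligand release and capture list and the GLI target list have medians of -1.82 and -1.75 in RA astrocytes against neuroepithelial cells.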

How the data were processed

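The authors deposited 1 linear intensity per probe set and array, for 54675 probe sets on 3 arrays, 1 array per group. Per the labels' protocols, biotin labelling followed the manufacturer's procedure at a core facility. No signal algorithm is stated in the labels or the file. Because the deposited arrays differed by 0.14 on the log2 scale at their 75th percentile, they were quantile normalized together. The floor was set at the median over non-control probe sets (signal 26.4, log2 4.72), with any smaller value set equal to it. A gene was represented by its probe set of highest mean log2 signal, leaving out the _x_at type where it had another. Probe sets were named from the platform annotation where it gave 1 symbol (41091 probe sets). Differences of log2 values were counted at 2-fold. A lower bound short of 2-fold was counted with the differences within 2-fold, though its true size may be larger. No test was run, since each group is 1 array. The pipeline was tested on simulated data. Python 3.11.15, numpy 2.4.6, pandas 2.3.3 and matplotlib 3.10.9 were used.

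All 10 members are given, with the probe sets under the floor on every array given by count. From each pathway list the text names genes among the 4 largest differences per direction and comparison, mostly those past 2-fold, together with SUFU, KIF7, NKX2-2, FOXA2, OLIG2 and CCND1. IHH and DHH are named for their role, and marker genes of cell types as examples, with values known. The members and lists were chosen with earlier results of these data known. Alternatives tried were no further normalization, equal array medians, a floor at the 30th percentile, at the 70th percentile or absent, sizes of 1.5-fold and 4-fold, averaging the probe sets of each gene, and leaving out _x_at and _s_at probe sets. A planned comparison of member proteins was not run, since no protein table was used here.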

Additional observations from a re-analysis of the deposited data

Results flagged for a closer look

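Several results lay on opposite sides of the neuroepithelial array in the 2 astrocyte cultures, though for some the FGF8 side was a small difference. The difference was not tested, since each culture is 1 array. BOC was above neuroepithelial cells in RA astrocytes and below in FGF8 astrocytes on 225990_at and 224184_s_at, with RA minus FGF8 log2 differences of 0.99 and 1.45, and the FGF8 side turned positive with array medians set equal. SUFU, the GLI inhibitor, lay at 0.60 in RA astrocytes and -1.01 in FGF8 astrocytes, 1.61 apart. PRKACA, a catalytic subunit of the kinase that primes GLI for processing, lay at 1.17 and -0.08, 1.26 apart. PRKACA signals were 125 in FGF8 astrocytes and 133 in neuroepithelial cells, so its FGF8 side was barely below and nothing is read from that sign. SPON1 lay at -4.20 in RA astrocytes and 0.28 in FGF8 astrocytes, a difference of -4.48. The dorsal factors PAX3 and PAX7 were at least 4.63 and 3.73 higher in RA than in FGF8 astrocytes on the log2 scale, both being at the floor in FGF8 astrocytes. In neuroepithelial cells PAX3 had a signal of 96.6 and PAX7 28.8, next to the floor. FGF8 astrocytes were thus at least 0.13 lower for PAX7, and nothing is read from that side. ZIC2, of the same dorsal list, went the other way between the astrocyte cultures, at -4.71. Its signals were 47.6 in RA astrocytes and 1241 in FGF8 astrocytes, and it lay below neuroepithelial cells in both, at -5.28 and -0.58. Of 5 dorsal genes compared between the astrocyte cultures, 2 were higher and 1 lower in RA astrocytes, and nothing is read from these counts. The other probe sets of SPON1 that were bright in neuroepithelial cells were also at least 2-fold lower in RA astrocytes. On these SPON1 probe sets FGF8 astrocytes lay at -0.54, 0.02 and 0.10 from neuroepithelial cells, all within 2-fold. The FGF8 side of SPON1 thus had no shared sign, and nothing is read from it. The other SUFU and PRKACA probe sets lay under the floor on every array. Other PAX3 probe sets above the floor were so on the RA array alone, and put RA astrocytes at least 0.69 and 0.90 above FGF8 astrocytes. The remaining PAX3 probe set and the other PAX7 probe set lay under the floor on every array.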

How the results depend on the processing

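No paired analysis was possible because each group is 1 array, and no array could be left out. With array medians set equal, 2 member genes were higher in RA astrocytes than in neuroepithelial cells (1 in the main setting), and 1 gene (4) and 4 probe sets (8) were lower in FGF8 astrocytes than in neuroepithelial cells. The sign of a member probe set turned under a scaling for the FGF8 difference of 2 BOC probe sets, to 0.32 and 0.10. The deposited values moved no count of member calls by over 1.5 times. With the floor at the 30th percentile, member probe sets higher in RA astrocytes numbered 4 against neuroepithelial cells and 5 against FGF8 astrocytes (2 each in the main setting), and genes 2 and 2. With the floor at the 70th percentile these were 1 and 1 probe sets and 0 and 0 genes. Without a floor, where values below it have no order, 6 probe sets were higher and 10 lower in RA astrocytes than in neuroepithelial cells. FGF8 astrocytes then had 1 higher and 14 lower, and RA against FGF8 astrocytes gave 8 higher and 7 lower, with 2 genes higher in each RA comparison. Shares over all probe sets and genes are given for the main setting alone. Counts of members under the alternatives therefore have no background here, and nothing is read from them about the members. The floor plate list turned from -2.82 to 1.53 in RA astrocytes against neuroepithelial cells without a floor, a list with 9 of 14 genes at the floor on both arrays.

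A size of 1.5-fold gave 11 probe sets lower and 2 genes higher in RA astrocytes than in neuroepithelial cells, and 2 genes higher than in FGF8 astrocytes. At 4-fold RA astrocytes had 0 higher and 2 lower, both in probe sets and in genes, against neuroepithelial cells. FGF8 astrocytes had 1 lower in each, and RA against FGF8 astrocytes gave 0 higher and 1 lower in each. The shares over all probe sets and genes given with the results are for 2-fold and do not apply at these sizes. With the probe sets of each gene averaged, 0 members were higher in either RA comparison and 0 lower in RA than in FGF8 astrocytes. Without _x_at and _s_at probe sets, 1 gene was lower in RA than in FGF8 astrocytes. The cause of these changes was not tested beyond the construction of each setting. Signal over background limits SHH, GLI1, HHIP and the dim probe sets most.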
